A study of Mus musculus with 10 samples.

Results

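The mitosis and spindle genes followed here are 41 protein-coding genes named by symbol, whose products condense, attach, move and separate the chromosomes of a dividing cell and then split the cell. All 41 were found among the 23234 genes of the deposited mouse expression table, and all 41 passed the filter on low values, a mean of at least 1 FPKM over the 8 C57BL/6 libraries, which 12412 genes passed. FPKM divide a gene's fragments by its length and the size of its library, so levels can be compared between genes. Cumulus-oocyte complexes, abbreviated COC and sequenced whole, were from 3-week-old, PMSG-primed mice of the strains BDF1 and DBA/2 (1 library each). The C57BL/6 strain gave 3 libraries of cumulus cells at an age of 10 months, 2 of mural granulosa cells at 2 months and 3 of cumulus cells at 2 months. Cumulus cells are the granulosa cells next to the oocyte, and mural cells are those of the follicle wall. PMSG and eCG are names of the same gonadotropin, which makes follicles grow. The library protocol, worded alike for every sample, speaks of mural cells of eCG-primed mice, and whether the cumulus donors were primed is not given in the labels. For every sample the labels list a medium holding milrinone, a phosphodiesterase inhibitor that keeps oocytes in meiotic arrest, as well as total RNA from a column kit. They do not say whether replicates are separate animals or how many mice were pooled, so p-values measure the spread between libraries, which may be technical.

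Most transcripts of this kind are made late in the cell cycle, from the S phase to mitosis, and are broken down or shut off after division. Their summed level in a tissue is therefore widely used as a sign of how many cells are dividing. Granulosa cells divide while a follicle grows and leave the cell cycle when they luteinize, after the ovulatory signal. The oocyte inside the follicle does not divide by mitosis, but it stores mRNA for the same spindle and checkpoint proteins, which it uses in its meiotic divisions and in the early embryo. Cyclin-dependent kinase 1 with its cyclins drives entry into mitosis, condensins compact the chromosomes, kinetochore complexes hold them to microtubules, and a checkpoint delays separation until all are attached. In bulk libraries like these, fewer dividing cells and less mitotic RNA per dividing cell cannot be told apart.

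The promoters are shown because many genes of this kind carry the same short elements there. The CHR element (cell cycle genes homology region, with the letters TTTGAA or, in a variant form, TTCGAA) and the box with the letters CCAAT are known as sites through which the DREAM, MYB-MuvB and NF-Y complexes hold mitotic genes silent in resting cells and switch them on in late cycles. RefSeq promoter windows of the GRCm38.p6 build, 250 bases before to 50 bases after a listed start, were found for 34 of the 41 members. The expression values were made on mm9, another build, so the windows were matched by gene symbol. The 6 shown are from 5 of the 7 role groups used below. Each line gives the 150 bases before the start, 5′ to 3′ in the direction of transcription, with every match to these 3 motifs, on either strand, in capitals.
Cdc20: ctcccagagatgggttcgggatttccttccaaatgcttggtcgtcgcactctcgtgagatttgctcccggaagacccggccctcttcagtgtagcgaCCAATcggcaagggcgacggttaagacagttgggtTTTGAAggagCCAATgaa
Cdk1: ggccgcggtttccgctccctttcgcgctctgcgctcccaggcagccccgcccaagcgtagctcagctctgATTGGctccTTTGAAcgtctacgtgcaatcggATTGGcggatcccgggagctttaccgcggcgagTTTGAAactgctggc
Top2a: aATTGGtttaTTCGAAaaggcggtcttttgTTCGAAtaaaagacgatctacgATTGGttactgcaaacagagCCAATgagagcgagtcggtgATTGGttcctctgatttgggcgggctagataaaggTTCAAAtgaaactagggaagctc
Espl1: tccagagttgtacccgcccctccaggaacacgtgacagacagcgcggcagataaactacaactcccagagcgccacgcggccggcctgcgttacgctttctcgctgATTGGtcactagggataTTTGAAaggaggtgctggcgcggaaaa
Kif11: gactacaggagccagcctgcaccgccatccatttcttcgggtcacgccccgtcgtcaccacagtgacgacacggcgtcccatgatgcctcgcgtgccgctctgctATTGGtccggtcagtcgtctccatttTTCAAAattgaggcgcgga
Birc5: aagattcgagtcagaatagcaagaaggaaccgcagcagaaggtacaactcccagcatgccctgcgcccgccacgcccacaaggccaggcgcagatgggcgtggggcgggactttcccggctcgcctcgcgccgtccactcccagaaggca
These are Cdc20 (chr4:118437344-118437493, minus strand), which activates chromosome separation, Cdk1 (chr10:69352913-69353062, minus strand), the entry kinase, Top2a (chr11:99024190-99024339, minus strand), the enzyme that untangles DNA, Espl1 (chr15:102296143-102296292, plus strand), the protease separase, Kif11 (chr19:37376232-37376381, plus strand), a motor of the bipolar spindle, and Birc5 (chr11:117849087-117849236, plus strand), survivin of the passenger complex, which holds none of these letters in the stretch printed. TTTGAA on either strand stood in the window of 25 of the 34 matched members (73.5%), against 20.2% of the 27025 genes in the promoter table. CCAAT on either strand stood in 26 of 34 (76.5%), against 41.1% of all genes, and both stood in 22 of 34 (64.7%), against 7.97% of all genes. The variant TTCGAA stood in 3 of 34 (8.82%), against 1.80% of all genes. In 1 of the members' 36 windows a TTTGAA and a CCAAT overlapped. The E2F-type letters GGCGGGAA, common before genes of DNA replication, stood in 0 of 34 member windows, against 2.52% of all genes. With 34 windows, 0 is close to that share, so no difference from all genes is shown. Of the 62 matched genes on a list of further mitosis genes, described below, 8 had these letters (12.9%). Nuf2, Nusap1, Ncaph, Mad2l1 and Birc5 had neither TTTGAA nor CCAAT in their windows. A match is a run of letters and not a measured binding site.

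Before the comparisons, the libraries were read for other cell types, in FPKM summed over marker lists. The 20 oocyte markers, among them the growth factor gene Gdf9, summed to 5689 and 5526 in the complexes, 622, 372 and 698 at 10 months in cumulus cells, 289 and 68.97 for mural cells and 451, 70.4 and 2111 in cumulus cells at 2 months. Replicate 3 at 2 months thus held far more oocyte RNA than its group, and replicate 2 held little, with 11 of the 20 markers at 0. The 6 mural markers, such as the luteinizing hormone receptor gene Lhcgr, summed to 1939 and 3659 in mural cells and 89.1, 90.4 and 65.4 in cumulus cells at 2 months, but to 88.98, 381 and 997 at 10 months. In replicates 2 and 3 at 10 months most of this sum was Cyp11a1, at 255 and 773 FPKM. Lhcgr had 12.5 and 62.7 FPKM there, against 2.02, 1.41 and 1.63 in cumulus cells at 2 months. Nppc was the only 1 of the 6 with a lower mean at 10 than at 2 months. It had 31.02 and 16.1 FPKM in these replicates, against 150 and 147 in mural cells. Replicates 2 and 3 thus carried raised levels of some mural markers but not of Nppc, and replicate 3 had the largest sum. The 7 cumulus markers summed to 1601 and 1730.0 in mural cells and 1798, 1550.2 and 1232 in cumulus cells at 2 months, so their sum did not tell these labels apart. Amh, encoding anti-Müllerian hormone, had 144 and 37.3 FPKM in the mural libraries, against 426, 366 and 318 FPKM in the cumulus libraries of the same age. Inhba, encoding an activin subunit, went the other way without passing the threshold, with 1096 and 1375 FPKM in the mural libraries, against 797, 711 and 540.3 FPKM in the cumulus libraries of the same age (log2 fold change 0.86 ± 0.26 (SE), adjusted p = 0.0534), and Foxl2 gave 0.63 (adjusted p = 0.345). The main counts below are also given without those libraries, while the other lists and the correlations are given with all of them.

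The members were well expressed in every library. At 2 months in cumulus cells their means ran from 13.6 FPKM for Cenpf to 135 FPKM for Top2a, with a median of 49.0 FPKM, against a median of 11.7 FPKM over all genes tested. Behind Top2a came Birc5 (113 ± 14.6), Ccnb2 (106 ± 19.5), Cdc20 (95.7 ± 17.1), Cenpa (94.4 ± 17.7) FPKM (mean ± SD, n = 3), and these neighbours did not differ beyond their spread. Per library, the members' median level was 59.3 and 54.2 FPKM in the complexes, 34.1, 39.1 and 27.1 FPKM in cumulus cells at 10 months, 22.9 and 20.1 FPKM in mural cells and 48.2, 51.4 and 45.5 FPKM in cumulus cells at 2 months. The groups did not overlap in this median, while the median over all genes tested stayed between 10.8 and 13.5 FPKM in the 10 libraries. As a share of all FPKM in a library, the members made up 45.8 and 44.4 per 10000 in the complexes, 26.6, 30.6 and 26.03 at 10 months, 21.6 and 20.5 in mural cells and 34.7, 38.9 and 37.1 in cumulus cells at 2 months.

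**Figure D1:**
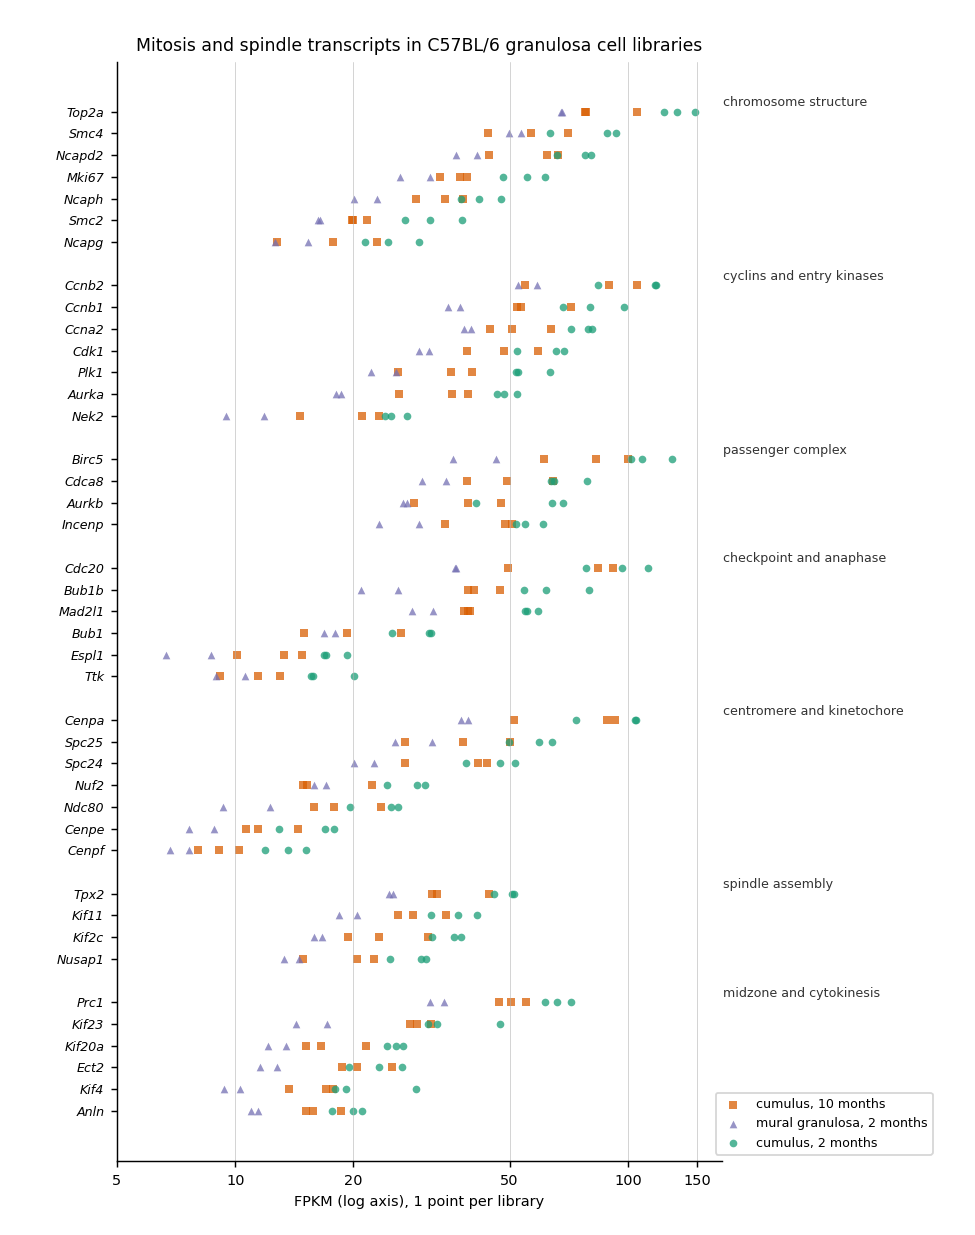
FPKM (log axis) of each of the 41 genes in the 8 C57BL/6 libraries, 1 point per library, with genes grouped by role. The mural points lie left of the points of cumulus cells at 2 months for all 41 genes, and the points at 10 months lie mostly between.

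**Figure D2:**
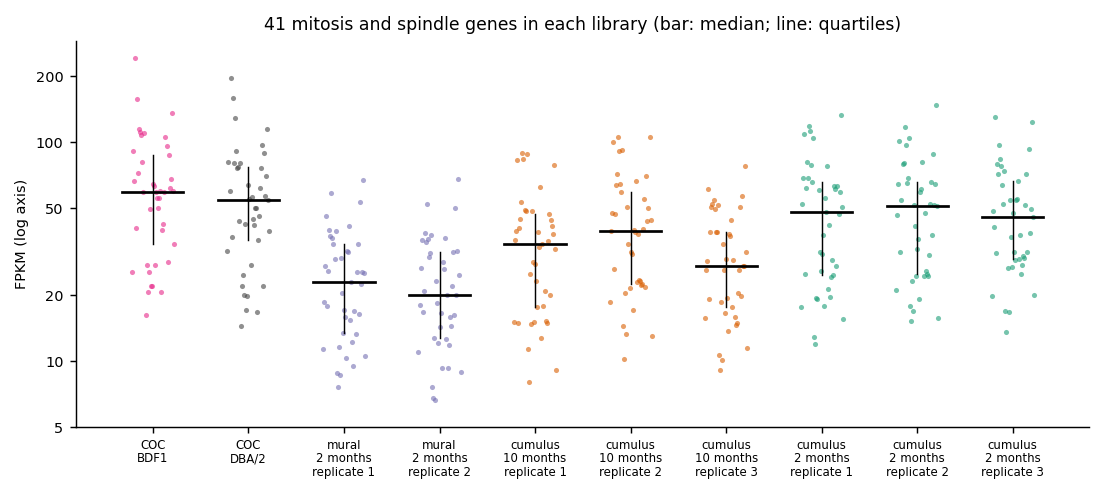
FPKM of the 41 genes per library on a log axis, 1 point per gene, with a bar at the median and a line over the quartiles. The medians lie at 20.1 and 22.9 FPKM in mural cells, between 27.1 and 39.1 FPKM in cumulus cells at 10 months and between 45.5 and 51.4 FPKM at 2 months.

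The comparison of mural with cumulus cells at 2 months asks how the mitotic programme differs between the granulosa compartments of the follicle. Transcripts of 37 of the 41 genes were lower in mural cells at an adjusted p under 0.05, and none was higher (limma on log2(FPKM + 1), two-sided, Benjamini-Hochberg over 12412 genes). Over all genes tested, 1396 were called lower, which is 11.2%. The members' median log2 fold change was -0.98, a level of 0.506 times that in cumulus cells, and it ran from -1.45 for Birc5 to -0.63 for Smc4, while the median over all genes was -0.08. All 41 genes had both mural libraries below all 3 cumulus libraries, against 32% of genes tested. The 4 genes not called were Smc4, Ncapg, Ccnb2 and Bub1.

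**Figure D3:**
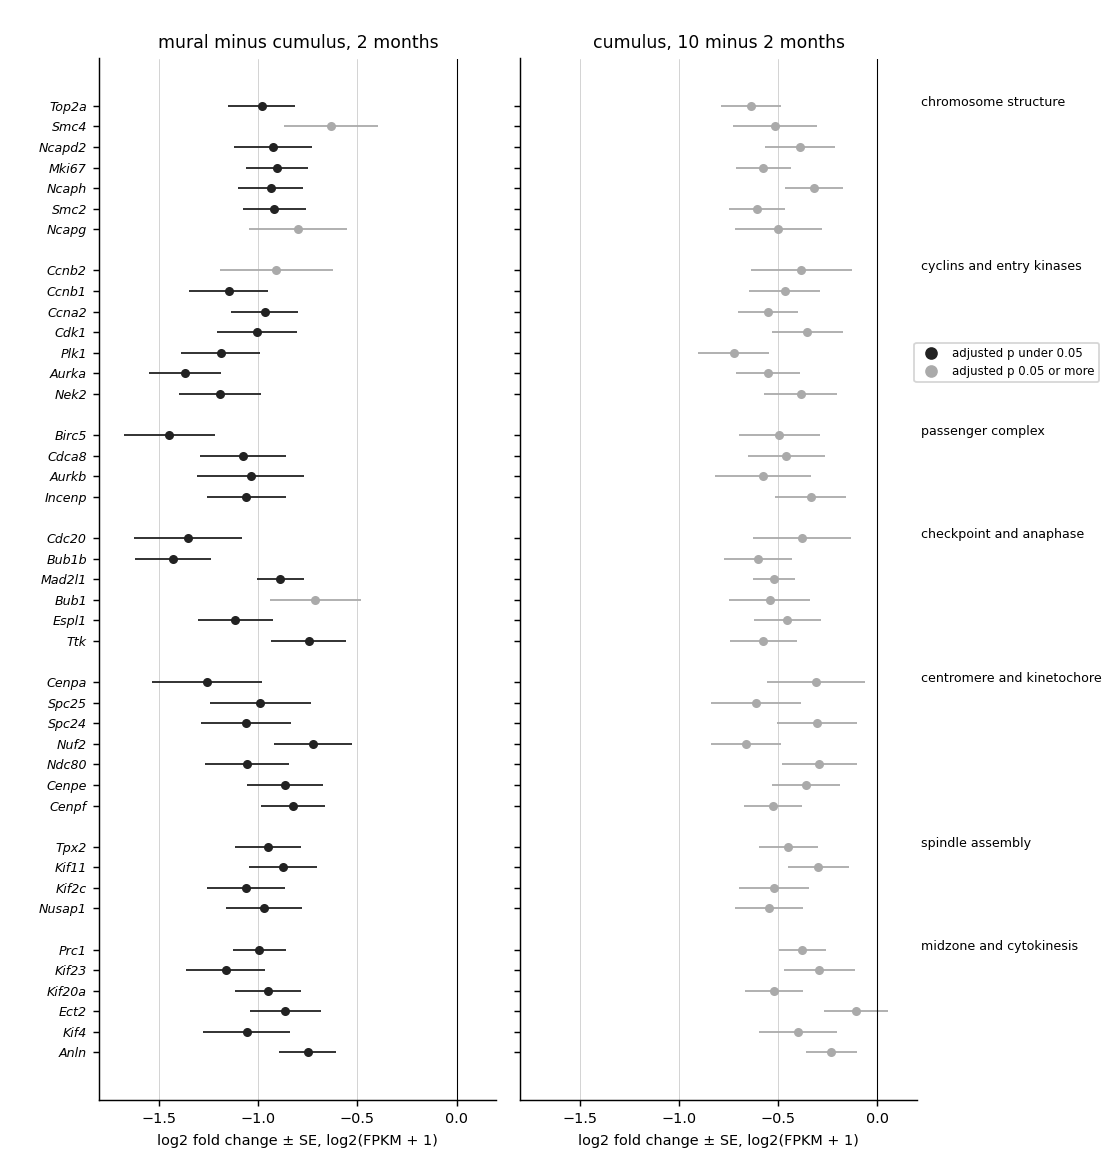
Log2 fold change with its standard error for each of the 41 genes, by role, for mural against cumulus cells at 2 months and for cumulus cells at 10 against 2 months; black points passed an adjusted p under 0.05 in limma and grey points did not. All points lie below 0 in both contrasts, with 37 black for mural cells and 0 black for age.

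Among the genes of chromosome structure, 5 of 7 were called lower in mural cells, with a median of -0.92 over all 7. Top2a, encoding topoisomerase II alpha, which untangles sister DNA, had 67.5 and 67.96 FPKM in the mural libraries, against 134, 148 and 124 FPKM in the cumulus libraries of the same age. The mural libraries nearly coincided and lay far below the cumulus range (log2 fold change -0.98 ± 0.17 (SE), adjusted p = 0.00962). Mki67, encoding the proliferation marker Ki-67 that coats mitotic chromosomes, also fell, as did Smc2, Ncapd2 and Ncaph, which encode a core ATPase and regulatory subunits of condensin (-0.91 for Mki67, -0.92 for Smc2, -0.93 for Ncapd2 and -0.94 for Ncaph). Smc4, which encodes the partner of Smc2 in condensin, had 53.3 and 49.8 FPKM in the mural libraries, against 63.2, 88.4 and 93.3 FPKM in the cumulus libraries of the same age. Its groups did not overlap, but the difference missed the threshold (log2 fold change -0.63 ± 0.24 (SE), adjusted p = 0.0931). Ncapg, another condensin subunit gene, missed it as well (log2 fold change -0.80 ± 0.25 (SE), adjusted p = 0.0557).

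Of the cyclins and entry kinases, 6 of 7 were called lower, with a median of -1.15 over all 7. Aurka, encoding Aurora kinase A of the spindle poles, had 18.6 and 18.1 FPKM in the mural libraries, against 52.3, 46.5 and 48.3 FPKM in the cumulus libraries of the same age. The mural libraries nearly coincided, far below the cumulus range (log2 fold change -1.37 ± 0.18 (SE), adjusted p = 0.00561). Ccnb2, encoding cyclin B2 and the most abundant of the 7, had 58.6 and 52.4 FPKM in the mural libraries, against 118, 117 and 83.9 FPKM in the cumulus libraries of the same age. Cumulus replicate 3 was the lowest of its group for Ccnb2, and the difference missed the threshold (log2 fold change -0.91 ± 0.28 (SE), adjusted p = 0.0579). The other calls were -1.19 for Nek2, a centrosome kinase gene, -1.19 for Plk1, encoding Polo-like kinase 1, -1.15 for Ccnb1, encoding cyclin B1, -1.004 for Cdk1, and -0.97 for Ccna2, encoding cyclin A2.

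All 4 genes of the chromosomal passenger complex, which corrects wrong attachments and later steers cytokinesis, fell in mural cells. Birc5, encoding survivin, had 46.1 and 35.9 FPKM in the mural libraries, against 108, 102 and 129.7 FPKM in the cumulus libraries of the same age. This was the largest difference of any member (log2 fold change -1.45 ± 0.23 (SE), adjusted p = 0.00762). Its promoter stretch is the one printed above without a match. Aurkb, encoding the complex's kinase, Incenp, encoding its scaffold, and Cdca8, encoding borealin, gave -1.04, -1.06 and -1.08.

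Spindle checkpoint and anaphase genes were called lower in 5 of 6 cases. Bub1b, encoding the checkpoint protein BubR1, had 25.9 and 20.9 FPKM in the mural libraries, against 61.8, 54.3 and 79.5 FPKM in the cumulus libraries of the same age, and the groups were well apart (log2 fold change -1.43 ± 0.19 (SE), adjusted p = 0.00577). Cdc20, whose product activates the anaphase promoting complex once the checkpoint is satisfied, had 36.6 and 36.2 FPKM in the mural libraries, against 112, 96.6 and 78.1 FPKM in the cumulus libraries of the same age. Its cumulus libraries spread more than those of Bub1b, and it still passed (log2 fold change -1.35 ± 0.27 (SE), adjusted p = 0.0147). Ttk, encoding the checkpoint kinase Mps1, showed a smaller difference, with 10.6 and 8.96 FPKM in the mural libraries, against 15.6, 15.8 and 20.02 FPKM in the cumulus libraries of the same age (log2 fold change -0.74 ± 0.19 (SE), adjusted p = 0.0300). Mad2l1, encoding the Mad2 inhibitor of Cdc20, and Espl1 gave -0.89 and -1.11. Bub1, encoding a checkpoint kinase at the kinetochore, had 17.9 and 16.8 FPKM in the mural libraries, against 25.1, 31.5 and 31.1 FPKM in the cumulus libraries of the same age, and missed the threshold (log2 fold change -0.71 ± 0.23 (SE), adjusted p = 0.0625).

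All 7 centromere and kinetochore genes fell. Cenpa, encoding the histone H3 variant that marks centromeres, had 39.2 and 37.5 FPKM in the mural libraries, against 105, 105 and 73.9 FPKM in the cumulus libraries of the same age (log2 fold change -1.26 ± 0.28 (SE), adjusted p = 0.0189). The NDC80 complex, the microtubule grip of the kinetochore, has 4 subunit genes here, with log2 fold changes of -1.06 for Spc24, -1.06 for Ndc80, -0.99 for Spc25 and -0.72 for Nuf2. Nuf2 had 17.02 and 15.9 FPKM in the mural libraries, against 29.00, 24.4 and 30.4 FPKM in the cumulus libraries of the same age, the least difference of the 4 (log2 fold change -0.72 ± 0.20 (SE), adjusted p = 0.0380). Whether the 4 differ among themselves was not tested. The kinesin gene Cenpe and the kinetochore gene Cenpf gave -0.86 and -0.82.

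All 4 spindle assembly genes and all 6 midzone and cytokinesis genes fell. Tpx2, whose product activates Aurora A and seeds microtubules, had 25.2 and 24.7 FPKM in the mural libraries, against 50.7, 51.4 and 45.5 FPKM in the cumulus libraries of the same age (log2 fold change -0.95 ± 0.17 (SE), adjusted p = 0.0101). Kif11, encoding the Eg5 motor that pushes spindle poles apart, Kif2c, encoding a microtubule depolymerizing kinesin, and Nusap1, encoding a microtubule bundler, gave -0.88, -1.06 and -0.97. Prc1, whose product bundles the antiparallel microtubules of the midzone, had 34.1 and 31.4 FPKM in the mural libraries, against 61.3, 66.1 and 71.6 FPKM in the cumulus libraries of the same age. The Prc1 groups were narrow and well apart (log2 fold change -0.99 ± 0.13 (SE), adjusted p = 0.00577). Kif23 and Kif20a, encoding midzone motors, Kif4, encoding a chromosome and midzone motor, Ect2, encoding the activator of RhoA, and Anln, encoding anillin of the contractile ring, ran from -1.16 for Kif23 to -0.75 for Anln. The table also lists Kif4-ps, a related pseudogene, so reads could be split between it and Kif4.

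The number of calls depended on the mural libraries. Without mural replicate 2 it was 0 of 41 (96 genes in all), without mural replicate 1 it was 12 (758 genes), and without cumulus replicate 2 at 2 months it was 23 (1208 genes). With 1 mural library left, that library is assumed to vary like the other groups. The members' median was -0.94 without mural replicate 2 and -1.02 without mural replicate 1, and all 41 log2 fold changes were below 0 under each of the 22 alternatives. Without cumulus replicate 3 at 2 months, which held much oocyte RNA, 34 were called (1884 genes in all). With the oocyte marker level as a covariate 35 were (1956 genes), against 2599 genes in the main fit. Rescaling all libraries to the same summed FPKM moved the median of all genes to 0.14 (-0.08 as deposited). It called 30 members and 2653 genes in all, 809 of those genes lower. The median of all 41 members was then -0.73, which is -0.87 relative to that of all genes, against -0.90 as deposited. Of all calls, 46.3% were higher in mural cells as deposited, 69.5% after rescaling and 55.4% after median centring.

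Other cell types also differed between these groups. The theca and stroma markers summed to 112 and 180.0 FPKM in mural cells, against 6.92, 7.56 and 7.03 in cumulus cells, with 8 of 9 tested higher. The endothelial markers summed to 25.4 and 67.1 against 4.15, 2.11 and 5.23 FPKM, with 5 of 6 tested higher and Emcn at 0 in every cumulus library at 2 months. The immune markers summed to 30.2 and 63.3 against 6.23, 8.74 and 8.52 FPKM, with 3 of 9 higher, and all 6 mural markers were higher. Of the erythroid markers 1 of 5 tested was higher and 1 lower, and of the surface epithelium markers 1 of 8 was higher. Over all 12412 genes tested, 1203 were called higher in mural cells and 1396 lower. Beside that, the single calls among erythroid and surface epithelium markers say little. The oocyte markers, with 0 of 18 tested called, had a median log2 fold change of -1.20. Their part in the members' difference was not tested, beyond the fit with the oocyte covariate.

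The comparison of cumulus cells at 10 and 2 months asks how they differ with age. No gene passed an adjusted p under 0.05, so 0 of 41 members and 0% of the 12412 genes were called (limma, smallest adjusted p 0.0869). All 41 log2 fold changes were below 0, with a median of -0.47 against -0.02 over all genes. At an unadjusted p under 0.05, 24 members were lower, against 6.19% of genes tested (768, and 1727 in either direction). The 3 libraries at 10 months lay below all 3 at 2 months for 21 of 41 members, against 8.88% of genes. The members' adjusted p ran between 0.196 and 0.821, and no member passed.

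Plk1 differed the most, with 35.4, 40.01 and 25.99 FPKM at 10 months, against 63.3, 52.4 and 51.8 FPKM at 2 months (log2 fold change -0.72 ± 0.18 (SE), adjusted p = 0.213). Its ranges were clearly apart. Nuf2 had 15.2, 22.3 and 14.9 FPKM at 10 months, against 29.00, 24.4 and 30.4 FPKM at 2 months (log2 fold change -0.66 ± 0.18 (SE), adjusted p = 0.229), and Top2a had 78.3, 105 and 77.8 FPKM at 10 months, against 134, 148 and 124 FPKM at 2 months (log2 fold change -0.64 ± 0.15 (SE), adjusted p = 0.213). Neither overlapped between the ages. Spc25 had 38.1, 50.1 and 27.1 FPKM at 10 months, against 59.5, 64.2 and 49.7 FPKM at 2 months, with replicate 2 at 10 months just above the lowest library at 2 months (log2 fold change -0.61 ± 0.23 (SE), adjusted p = 0.305). At the other end stood genes of cytokinesis. Ect2 had 25.04, 20.4 and 18.7 FPKM at 10 months, against 19.5, 23.3 and 26.6 FPKM at 2 months, and the ages overlapped throughout (log2 fold change -0.11 ± 0.16 (SE), adjusted p = 0.821). Anln had 15.2, 18.6 and 15.8 FPKM at 10 months, against 17.7, 21.1 and 19.9 FPKM at 2 months, a log2 fold change of -0.23. Kif23 had 27.9, 31.5 and 29.1 FPKM at 10 months, against 30.9, 32.7 and 47.3 FPKM at 2 months, with replicate 3 at 2 months well above the rest (-0.29). The kinetochore gene Ndc80 had 17.8, 23.6 and 15.9 FPKM at 10 months, against 19.6, 25.9 and 24.9 FPKM at 2 months, with overlapping ages (-0.29). By role, the medians ran from -0.53 for checkpoint and anaphase genes to -0.34 for midzone and cytokinesis genes.

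The libraries at 10 months differed among themselves in a shared way. Replicate 2 was the highest of the 3 for 38 of 41 members, and replicate 3 was the lowest for 29. These ranks were not counted over all genes. The summed FPKM of all genes was 563913, 592161 and 489474 in replicates 1, 2 and 3. As a share of that sum the members made up 26.6, 30.6 and 26.03 per 10000, so replicates 1 and 3 were close. The members' median coefficient of variation was 19.9% at 10 months and 12.2% at 2 months. Without replicate 3, which held the most mural marker RNA, the members' median was -0.37, and replicates 1 and 2 alone lay below every library at 2 months for 21 of 41 members, against 12.5% of genes. Without replicate 2 at 10 months the median was -0.60 and 280 genes passed, among them Top2a (-0.78, adjusted p = 0.0396) and Nuf2 (-0.84, adjusted p = 0.0397). Leaving out replicate 3 of both ages gave a median of -0.34, with 40 of 41 members below 0 and Ect2 at 0.08. Leaving out replicate 3 at 2 months alone gave a median of -0.48 with 3 genes called, none a member. Replicate 1 at 10 months, whose mural marker sum lay within the range at 2 months, was below every library at 2 months for 36 of 41 members, against 28.2% of genes.

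Marker sums moved with age too. Mural markers summed to 88.98, 381 and 997 FPKM at 10 months, against 89.1, 90.4 and 65.4 at 2 months, so replicate 1 lay within the range at 2 months. Immune markers summed to 31.7, 70.7 and 96.2 FPKM at 10 months, against 6.23, 8.74 and 8.52 at 2 months, and theca and stroma markers to 25.4, 32.2 and 55.2 against 6.92, 7.56 and 7.03 FPKM. Endothelial markers summed to 5.09, 6.79 and 23.4 against 4.15, 2.11 and 5.23 FPKM, erythroid markers to 23.2, 21.9 and 136 against 19.3, 21.4 and 13.3 FPKM and surface epithelium markers to 58.4, 58.4 and 118 against 34.9, 27.5 and 26.9 FPKM. None of these markers was called. Except for the mural and endothelial sums, every library at 10 months exceeded every library at 2 months, though for erythroid markers by little in replicates 1 and 2. Their part in the members' difference was not tested.

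The order of the group means was the same for every member: lowest in mural cells, between in cumulus cells at 10 months and highest in cumulus cells at 2 months, in 41 of 41. Both comparisons share the cumulus libraries at 2 months, so this order is not independent evidence for either. How many of all genes tested have the same order was not counted. Mural cells lay below every cumulus library at 10 months for 34 of 41 members, against 28.1% of genes, a comparison in which cell type and age differ together. Without replicate 3 of both cumulus groups the order held for 40 of 41, and without replicate 3 at 10 months mural cells lay below for 36 of 41, against 37.2% of genes.

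The complexes hold the oocyte with its cumulus cells, and they show which members a library rich in oocyte RNA also holds at a high level. With 1 library per strain there is no test, and strain, age, priming and oocyte content differ from the other libraries together and cannot be told apart. Both COC libraries lay above all 8 C57BL/6 libraries for 21 of 41 members, against 22.6% of genes tested. Without cumulus replicate 3 at 2 months the count was 22 members, and the share of all genes was not counted for that setting. The ratio of the mean of both COC libraries to the mean of cumulus cells at 2 months had a median of 1.20 over the members and 1.09 over all genes, and without cumulus replicate 3 at 2 months 1.16 and 1.06. By role, the raised members were 4 of 6 in checkpoint and anaphase, 4 of 7 in centromere and kinetochore, 4 of 7 in cyclins and entry kinases, 3 of 4 in spindle assembly, 3 of 6 in midzone and cytokinesis, 2 of 7 in chromosome structure and 1 of 4 in the passenger complex.

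Bub1b was raised the most, with 158 FPKM in the BDF1 complexes and 159 FPKM in the DBA/2 complexes, against 61.8, 54.3 and 79.5 FPKM in cumulus cells at 2 months, a ratio of 2.44. In oocytes BubR1 is known to act in prophase arrest and in the checkpoint of the meiotic divisions. The checkpoint kinase gene Ttk had 34.3 FPKM in the BDF1 complexes and 39.1 FPKM in the DBA/2 complexes, against 15.6, 15.8 and 20.02 FPKM in cumulus cells at 2 months (ratio 2.14). Nusap1 had 59.1 FPKM in the BDF1 complexes and 61.7 FPKM in the DBA/2 complexes, against 24.8, 30.6 and 29.6 FPKM in cumulus cells at 2 months (ratio 2.13), the largest ratio among spindle assembly genes. For these 3 genes each strain was at least 2-fold above the cumulus mean, a count not made over all genes. The condensin gene Ncapg had 55.5 FPKM in the BDF1 complexes and 50.1 FPKM in the DBA/2 complexes, against 21.5, 24.5 and 29.4 FPKM in cumulus cells at 2 months (ratio 2.101). Birc5 had 243 FPKM in the BDF1 complexes and 196 FPKM in the DBA/2 complexes, against 108, 102 and 129.7 FPKM in cumulus cells at 2 months (ratio 1.94), and was the most abundant member in the complexes. Ccnb1, whose protein oocytes build up before meiotic maturation, had 115 FPKM in the BDF1 complexes and 129 FPKM in the DBA/2 complexes, against 68.5, 80.2 and 97.6 FPKM in cumulus cells at 2 months (ratio 1.49). The spread among the cumulus libraries at 2 months was much smaller than the gap to the complexes for each of these except Ccnb1. The remaining raised members, in falling order of ratio, were Cenpf (1.83), Aurka (1.76), Kif23 (1.73), Kif2c (1.68), Plk1 (1.63), Nuf2 (1.58), Nek2 (1.48), Anln (1.46), Prc1 (1.45), Bub1 (1.32), Ncaph (1.30), Spc24 (1.29), Espl1 (1.29), Spc25 (1.20) and Tpx2 (1.16).

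The other 20 members were not raised. Kif11 had 21.9 FPKM in the BDF1 complexes and 17.04 FPKM in the DBA/2 complexes, against 31.5, 41.3 and 37.02 FPKM in cumulus cells at 2 months (ratio 0.532), so both complexes were below every cumulus library at 2 months. The condensin gene Ncapd2 had 50.2 FPKM in the BDF1 complexes and 41.9 FPKM in the DBA/2 complexes, against 77.9, 80.8 and 66.1 FPKM in cumulus cells at 2 months (ratio 0.615), with the same arrangement. Smc2 had 28.4 FPKM in the BDF1 complexes and 22.1 FPKM in the DBA/2 complexes, against 27.1, 37.8 and 31.3 FPKM in cumulus cells at 2 months (ratio 0.788), where the BDF1 value lay within the cumulus range. In all, 4 members had both complexes below the 3 cumulus libraries at 2 months, namely Kif11, Ncapd2, Incenp and Kif20a, against 18.3% of genes. Members of the same complex thus stood on opposite sides: of the condensin genes, Ncapg and Ncaph were raised while Ncapd2 and Smc2 had ratios below 1. BDF1 was above DBA/2 for 30 of 41 members, with ratios between the strains of 0.807 to 1.42, a difference that has no replicate. The same count over all genes was not made. Summed over all genes, FPKM was also higher in BDF1 (597855) than in DBA/2 (556140), and the members' share was 45.8 and 44.4 per 10000.

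**Figure D4:**
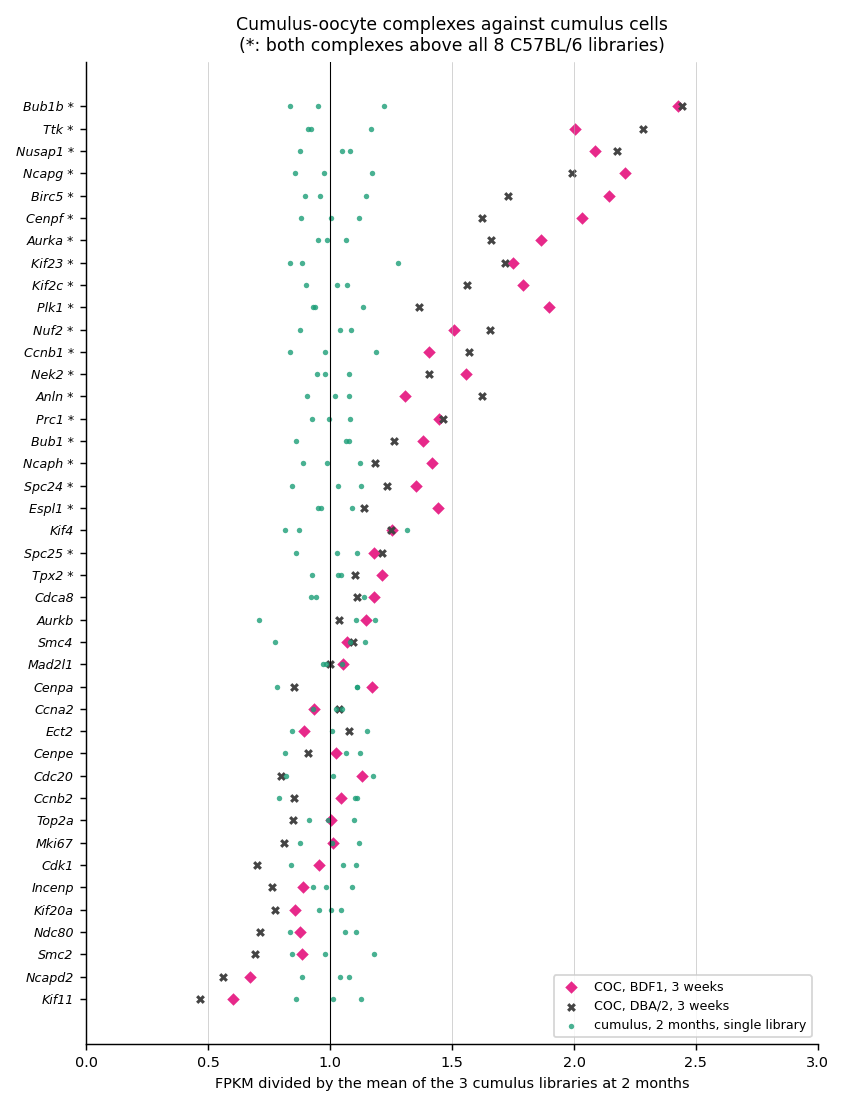
FPKM of each gene in the BDF1 and DBA/2 complexes and in the 3 cumulus libraries at 2 months, all divided by the mean of those cumulus libraries, with genes in order of the COC ratio. The 21 starred genes were above all 8 C57BL/6 libraries in both complexes, from Bub1b at a ratio of 2.44, while Kif11 at 0.532 is the lowest.

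The cumulus libraries themselves varied in oocyte RNA, which allows the levels to be set side by side. Gdf9 had 951 and 894 FPKM in the complexes, 78.1, 41.7 and 84.5 FPKM in cumulus cells at 10 months, 30.6 and 3.07 FPKM in mural cells and 54.4, 0.647 and 261 FPKM in cumulus cells at 2 months. In replicate 2 at 2 months, where Gdf9 was near 0, the 41 members still ran from 15.2 to 148.3 FPKM with a median of 51.4 FPKM. Replicate 3 at 2 months, rich in oocyte RNA, was the highest of the 8 C57BL/6 libraries for 9 of the 21 raised members and 4 of the other 20. The ratio of replicate 3 to replicate 2 had a median of 0.989 over the raised members and 0.904 over the others. Single members spread widely, from 0.748 for Spc24 to 1.46 for Bub1b among the raised and from 0.640 for Aurkb to 1.51 for Kif4 among the others. Of the most raised members, Bub1b, Ttk (1.27), Birc5 (1.27) and Ncapg (1.20) were above 1, and Nusap1 (0.969) was below. The part of oocyte RNA in these ratios was not tested. In mural against cumulus cells, 19 of the 21 raised members and 18 of the other 20 were called lower. TTTGAA stood in the promoter of 12 of 19 matched raised members and 13 of 15 matched others.

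**Figure D5:**
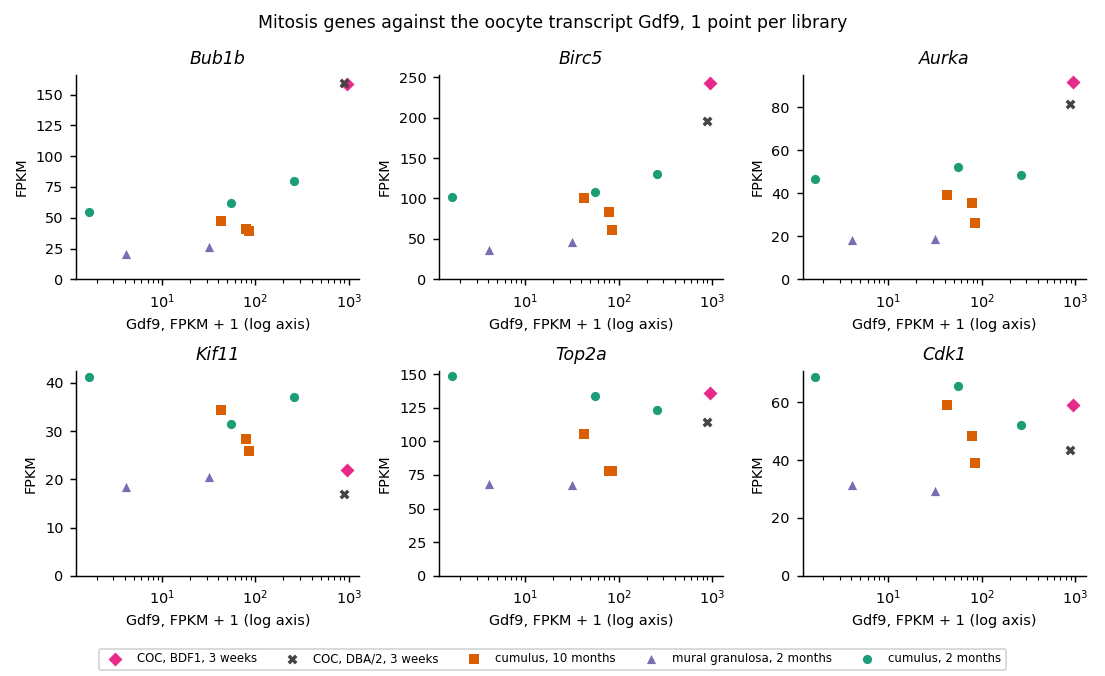
FPKM of Bub1b, Birc5, Aurka, Kif11, Top2a and Cdk1 (linear axes from 0) against FPKM + 1 of the oocyte gene Gdf9 (log axis), 1 point per library. Cumulus replicate 2 at 2 months, with 0.65 FPKM of Gdf9, is the lowest of its group for Bub1b, Birc5 and Aurka. It is the highest of its group for Kif11, Top2a and Cdk1. The complexes, with 951 and 894 FPKM of Gdf9, stand apart for Bub1b, Birc5 and Aurka.

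Other genes of division were followed by lists chosen with earlier results of these data known. Of 71 further mitosis genes, 69 were in the table and tested, and 39 were lower in mural cells with 0 higher (median -0.81, and -0.41 for age), led by -1.22 for Cenpn, -0.85 for Kntc1, -1.03 for Melk and -1.42 for Cdca5. Cenpn and Kntc1 encode a centromere protein and a kinetochore protein, Melk a mitotic kinase, and Cdca5 sororin, which protects sister cohesion. Of the 28 replication genes, 24 were lower and 0 higher (median -1.08, and -0.46 for age), among them -1.27 for Mcm10, -1.34 for Mcm6, -1.02 for Mcm4 and -0.96 for Pole. Mcm6 and Mcm4 encode parts of the replicative helicase, and Pole encodes a DNA polymerase. In the complexes, 3 of the 28 replication genes were raised in both, as were 23 of the 69 further mitosis genes, with 22.6% over all genes tested. TTTGAA stood before 4 of 22 matched replication genes (18.2%) and 31 of 62 matched further mitosis genes.

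The counts that follow stand beside 11.2% of all genes called lower in mural cells. The anaphase promoting complex, which tags cyclins and securin for destruction, was followed with its enzymes and regulators, and 4 of these 18 genes were lower and 0 higher, with a median of -0.31. The 4 called were -1.15 for Ube2c, -1.06 for Ube2s, -0.51 for Anapc1 and -0.88 for Anapc11, and Ube2c and Ube2s encode its ubiquitin-conjugating enzymes. Of the 14 subunits proper, 2 were lower. Cohesin genes, for the ring that holds sister chromatids, had 4 of 12 lower and 1 higher, with a median of -0.06. Smc1a, Pds5a and Smc3 gave -0.81, -0.66 and -0.53. Log2 fold changes were below 0 for 7 of the 12. The 1 gene called higher was Wapal, whose product opens the ring, at 73.8 ± 10.6 FPKM in mural cells, against 34.8 ± 4.36 FPKM in cumulus cells (SD over 2 and 3 libraries). It passed the threshold (log2 fold change 1.07 ± 0.18 (SE), adjusted p = 0.00853). Regulators of mitotic transcription had 8 of 20 lower and 0 higher, with a median of -0.55. Mybl2, encoding B-Myb of the MYB-MuvB complex, had 7.04 and 4.65 FPKM in the mural libraries, against 17.3, 14.5 and 22.2 FPKM in the cumulus libraries of the same age (log2 fold change -1.48 ± 0.24 (SE), adjusted p = 0.00843), and -0.74 for E2f7, -0.58 for Rbl1 and -1.25 for E2f1 followed. The list for oocyte meiotic maturation also holds the member Bub1b, described above, which had its smallest p. Of the other 12 genes tested, 3 were lower and 1 higher, and 9 were raised in both complexes, against 22.6% of all genes. The 4 of smallest p among these 12 gave -0.77 for Cdc25a, -0.86 for Cdc25b, -1.12 for Tex14 and 1.11 for Rec8; Cdc25a and Cdc25b encode phosphatases that activate cyclin-dependent kinases, and Rec8 encodes meiotic cohesin.

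Within the set, each member's log2(FPKM + 1) over the 8 C57BL/6 libraries was close to the mean of the other members, with Pearson correlations of 0.769 for Smc4 to 0.984 for Tpx2 and a median of 0.947. These correlations follow the group differences above and are a description over 8 libraries. Genes of the other lists and of the marker lists were left out of the ranking that follows. Among the remaining genes tested, those most like the members' mean were Mcm8 (r = 0.994), Mre11a (r = 0.993), Lgr6 (r = 0.990), Nup133 (r = 0.990), Eno1 (r = 0.988), Slc35f2 (r = 0.987), Drosha (r = 0.987) and Clspn (r = 0.987). Mcm8 and Mre11a encode a helicase and a nuclease of DNA repair, Clspn encodes the replication checkpoint protein claspin, Nup133 a nuclear pore protein, Eno1 a glycolytic enzyme, Drosha the nuclease of microRNA processing and Lgr6 a receptor of R-spondins. Mcm8 had 7.69, 10.3 and 7.09 FPKM in cumulus cells at 10 months, 5.64 and 4.52 FPKM in mural cells and 11.6, 11.99 and 11.9 FPKM in cumulus cells at 2 months, the same order of groups as the members. As Mcm8 was picked by likeness over these same libraries, that order is not a separate result.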

How the data were processed

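Total RNA of mouse granulosa cells and complexes was sequenced in 10 libraries. The deposited table holds FPKM per gene; the authors used TopHat2 2.1.0, Cufflinks 2.1.0 and mm9, per the submitters' processing notes. The sources used here do not give annotation, strand use, read depth or read length, so no counting error can be attached, and reads of overlapping antisense genes or near-identical copies cannot be told apart.

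From these values, log2(FPKM + 1) was fitted with limma 3.58.1 (R 4.3.3) for the 8 C57BL/6 libraries in 1 model with an intensity trend and 5 residual degrees of freedom, on genes with a mean of at least 1 FPKM. Fold changes are on this scale, which understates changes of low genes; tests are two-sided, p-values were adjusted by the Benjamini-Hochberg method over all genes tested, and a call needs an adjusted p under 0.05. The fit was tested on simulated data. Members and lists were chosen with earlier results of these data known. Members were all reported; those given in full are the 4 largest and 4 smallest of each contrast, the most abundant of each role, and the 3 lowest in the complexes. Of the 21 raised in the complexes, 6 are given in full, Ccnb1 chosen after its values were seen, and 15 by their ratio. From each other list up to 4 tested genes of smallest p were named, and 8 genes by likeness. Values without the libraries that stood apart in markers, beside the fitted alternatives, were added after seeing the data. Alternatives changed the pseudocount, filter, scaling, model, weights and libraries.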

Additional observations from a re-analysis of the deposited data

How the results depend on the processing

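All 41 members had a negative log2 fold change under each of the 22 alternatives for mural cells, and for age under each except that Ect2 was at 0.0812 (adjusted p = 0.866, limma) when replicate 3 of both cumulus groups was left out. Of 37 members called in mural cells, leaving out 1 library gave 0 to 40, and the other settings gave 30 to 41. The genes called in all, 2599, were 96 to 3251 when 1 library was left out and 5425 with library weights. For age, members called were 0 to 2 and genes called 0 to 280 when 1 library was left out; genes called were 5 with no filter, 69 with library weights, 7 without replicate 3 of both groups, and 3 with the oocyte covariate and without replicate 3 at 10 months, a setting chosen after seeing the data. Of the members raised in the complexes, 3 were at least 2-fold above the mean of cumulus cells at 2 months, a count not made over all genes. The causes were not tested.

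Deviations from the group mean were correlated between libraries with the same replicate number. Pearson r was 0.006, 0.118 and 0.147 between the ages, and 0.032 and 0.214 between mural and cumulus cells. For libraries with different numbers, r ran from -0.214 to 0.170. Deviations within groups of 2 or 3 libraries depend on each other, so these values cannot decide whether a number stands for a shared batch or pairing. With the number as a replicate block, 36 members and 3361 genes were called in mural cells and 0 for age.

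With 2 mural libraries, 1 library per COC strain and no depths, the precision of each value is limited to the spread shown.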

Other observations

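Mos and Wee2, genes of the oocyte's meiotic programme, were chosen after their values were seen. Mos, encoding the kinase that holds eggs in metaphase, had 105 and 133 FPKM in the complexes, 6.38, 4.09 and 6.67 FPKM in cumulus cells at 10 months, 2.69 and 0.456 FPKM in mural cells and 4.92, 0 and 25.99 FPKM in cumulus cells at 2 months. Wee2, encoding an oocyte inhibitor of Cdk1, had 41.97 and 40.7 FPKM in the complexes and 2.57, 0 and 18.6 FPKM in cumulus cells at 2 months. Both were at 0 in replicate 2 at 2 months, in which every member was present.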
